A study of Mus musculus with 16 samples.

Results

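The regions described here are the accessible chromatin regions nearest to 8 genes that Wnt signalling induces and whose products feed back on it or act downstream of it: Axin2, Sp5, Sp8, Nkd1, Notum, Lgr5, Rnf43 and Znrf3. Accessibility was measured by ATAC-seq, in which a transposase cuts open DNA, in 16 libraries made from mouse embryonic stem cell (ESC) lines on day 2 or day 3 of differentiation to anterior neural progenitor cells (antNPCs). In each library the 50000 distinct peak intervals with the highest -log10 p were kept, and windows of 150 bp on each side of their summits were merged into regions where at least 2 libraries had one. A region belonged to a gene if its summit lay within 100 kb of the nearest protein-coding transcription start site (TSS) and that TSS was the gene's. This gave 66 regions of the 8 genes out of 80576 regions in all. Axin2 had 18 of them, Sp8 had 12, Sp5 and Nkd1 had 9 each, Znrf3 had 8, Lgr5 had 5, Notum had 3 and Rnf43 had 2. A region is called open in a library when one of the 50000 intervals overlaps it, and its height is the fold enrichment over background that the peak caller gave at the summit.

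In canonical Wnt signalling, a Wnt ligand bound to Frizzled and LRP receptors stops the destruction complex of Axin, APC and GSK3 from degrading β-catenin, which then joins TCF/LEF factors on DNA. Axin2 is a scaffold of that destruction complex and Nkd1 binds Dishevelled, so both limit the pathway after it has been switched on. Notum removes the lipid from Wnt ligands, Rnf43 and Znrf3 are membrane ubiquitin ligases that clear Frizzled from the cell surface, and Lgr5 is an R-spondin receptor that holds these ligases back. Sp5 and Sp8 are zinc finger transcription factors that act downstream of Wnt in the primitive streak and the caudal embryo.

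The cells were male F1 lines whose strain all labels give as B6129S6F1 Tet1<tm1Koh>, WT lines included, each group with 2 lines and 1 library a line. On day 3 there were WT cells given 3 µM CHIR99021 (CHIR, a GSK3 inhibitor that switches the pathway on; lines WT7 and WT34), Tet1 KO cells given 5 µM XAV939 (XAV, a tankyrase inhibitor that stabilises Axin; lines KO1 and KO15), and untreated KO (KO1 and KO15), MUT (CM59 and CM69) and WT cells (WT70 and WT72). On day 2 there were KO, MUT and WT cells of the same untreated lines. MUT lines are CRISPR clones of WT7 in which the catalytic site of TET1 was changed, while KO lines lack TET1. The inhibitors were added on day 2. No library is labelled as vehicle-treated, and the CHIR-treated WT lines are not the untreated WT lines, so that treatment and line cannot be told apart there. All p-values rest on 2 lines a group.

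The deposited peak lists held 161449 to 276451 rows a library, of which 135359 to 219047 were distinct intervals, and read depth itself is not part of them. The -log10 p of the last kept interval ranged from 6.84 to 21.8. The lowest value belonged to replicate 2 of KO on day 3, which also had no listed peak at 12.2% of all regions, the largest share of the 16. Promoters of all 4 housekeeping genes checked and of all 4 primitive streak genes checked (T, Eomes, Mixl1, Foxa2) were open in every library, those of 5 or 6 of 6 pluripotency genes and of 2 or 3 of 3 neural genes were open, and so were those of 3 or 4 of 6 fibroblast genes and of 2 or 3 of 3 extraembryonic genes. Neither Col3a1 nor Postn had a region at its promoter. Open promoters therefore did not tell the cell types apart.

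The sequences below are examples from the 11 regions that were higher in CHIR-treated WT than in WT cells on day 3. Apart from Sp5 −31.0 kb, the regions shown were in the set only through the CHIR-treated libraries. The choice favours regions with the TCF/LEF core, which 6 of the 11 held. Each is 300 bases around a summit, on the plus strand of mm10 (GRCm38), taken from RefSeq's GRCm38.p6 assembly. Capitals mark the TCF/LEF core, CTTTGAT or CTTTGAA, on either strand (ATCAAAG or TTCAAAG on the strand shown). Distances are from the nearest TSS of the gene, negative upstream.
Sp5 −31.0 kb, intergenic, chr2:70443743-70444042: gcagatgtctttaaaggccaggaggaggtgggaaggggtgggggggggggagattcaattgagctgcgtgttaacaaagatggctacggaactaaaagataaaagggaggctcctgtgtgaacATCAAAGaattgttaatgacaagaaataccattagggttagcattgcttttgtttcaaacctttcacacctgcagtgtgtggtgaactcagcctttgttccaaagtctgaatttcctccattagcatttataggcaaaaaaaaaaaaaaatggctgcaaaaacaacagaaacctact
Axin2 −22.5 kb, intergenic, chr11:108897673-108897972: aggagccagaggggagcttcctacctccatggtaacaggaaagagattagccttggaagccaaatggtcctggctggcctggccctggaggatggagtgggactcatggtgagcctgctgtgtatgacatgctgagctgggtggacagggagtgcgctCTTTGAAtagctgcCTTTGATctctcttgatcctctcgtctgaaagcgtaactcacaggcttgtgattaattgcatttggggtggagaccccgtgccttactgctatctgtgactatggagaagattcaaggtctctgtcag
Axin2 +24.5 kb, in an Axin2 intron, chr11:108947568-108947867: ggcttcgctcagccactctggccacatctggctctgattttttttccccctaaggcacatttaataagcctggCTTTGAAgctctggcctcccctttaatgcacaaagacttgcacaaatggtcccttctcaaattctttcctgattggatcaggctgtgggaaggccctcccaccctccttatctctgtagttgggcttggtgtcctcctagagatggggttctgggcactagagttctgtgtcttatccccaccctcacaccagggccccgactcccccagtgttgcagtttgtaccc
Nkd1 −26.0 kb, intergenic, chr8:88495169-88495468: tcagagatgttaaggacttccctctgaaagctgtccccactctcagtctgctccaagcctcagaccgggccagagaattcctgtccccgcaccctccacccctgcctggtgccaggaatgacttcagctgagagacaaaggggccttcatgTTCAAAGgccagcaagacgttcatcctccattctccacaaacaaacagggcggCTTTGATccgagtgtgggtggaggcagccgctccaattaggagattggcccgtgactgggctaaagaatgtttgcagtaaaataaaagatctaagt
Sp8 +6.0 kb, intergenic and past the 3′ end of the gene, chr12:118853413-118853712: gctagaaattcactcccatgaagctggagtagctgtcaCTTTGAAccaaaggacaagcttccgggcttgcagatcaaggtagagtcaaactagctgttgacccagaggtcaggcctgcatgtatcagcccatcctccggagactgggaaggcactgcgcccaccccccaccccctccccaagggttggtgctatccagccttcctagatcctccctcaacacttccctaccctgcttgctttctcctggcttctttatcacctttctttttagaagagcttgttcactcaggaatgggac
Sp8 −38.6 kb, intergenic, with no match, chr12:118807622-118807921: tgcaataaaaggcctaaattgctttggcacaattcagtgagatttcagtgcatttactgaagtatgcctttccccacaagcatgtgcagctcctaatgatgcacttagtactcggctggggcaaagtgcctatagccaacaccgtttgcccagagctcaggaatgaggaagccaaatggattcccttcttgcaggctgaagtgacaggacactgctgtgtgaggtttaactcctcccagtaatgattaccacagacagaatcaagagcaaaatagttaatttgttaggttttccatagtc

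Axin2 −22.5 kb and Nkd1 −26.0 kb each held 2 matches, and Sp5 −31.0 kb, Axin2 +24.5 kb and Sp8 +6.0 kb held 1. Over all 66 regions of the 8 genes, 20 (30.3%) held at least 1 match in the same 300-base window, against 10.9% of all 80576 regions. Within 3 kb of a TSS it was 6 of 20 regions against 5.64% of all regions, and beyond 3 kb it was 14 of 46 against 13.1%. Of the 11 regions of the 8 genes that were higher with CHIR, 6 held a match, against 27.6% of the 8139 regions that were higher with CHIR in all, and 1 of the 6 that were lower did, against 9.34% of 10720. Of those 11 higher regions, 10 were in the set through the CHIR-treated libraries, so the share with a match among them only describes the set. Such regions also count in the shares over all 66. The window 186 bp inside Sp5 held 3. A match describes the letters in the window and was not tested as a binding site.

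The number of open regions of the 8 genes was highest in CHIR-treated WT cells. However, 16 regions were open in both of those libraries and in none of the other 14. These 16 could enter the set only through the CHIR-treated libraries, so the higher number describes the set and is not read as a response. Further regions, such as Axin2 +50.6 kb, had a summit in both CHIR-treated libraries and in 1 other, and so needed them too. Of the 66 regions, 50 and 48 were open in the CHIR-treated WT libraries, 34 and 31 in XAV-treated KO, 34 and 36 in KO, 34 and 35 in MUT and 36 and 35 in WT on day 3. On day 2 the numbers were 28 and 28 in KO, 28 and 30 in MUT and 29 and 28 in WT. The share of all 80576 regions that was open stayed between 61.4% and 65.1% in every library, since each contributed the same number of intervals. In these bulk samples, more cells with an open region and a more open region per cell cannot be told apart.

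**Figure D1:**
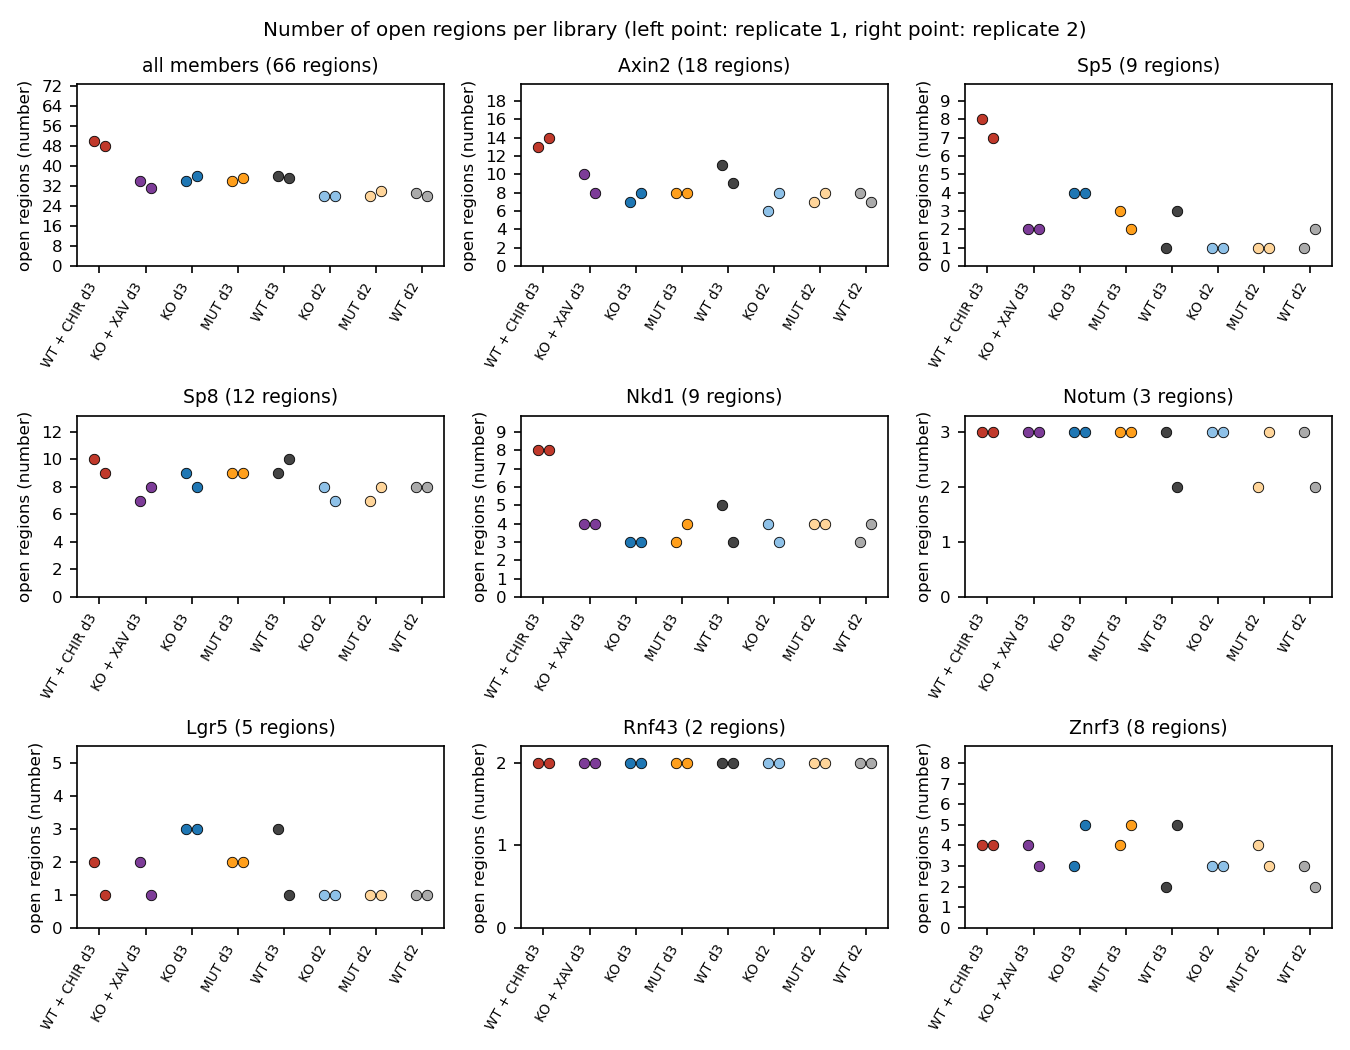
Number of open regions (y axis, from 0) in each of 16 libraries (points, 2 a group on the x axis) for all 66 regions and for each gene. The CHIR-treated WT libraries stood above the rest for all regions together (50 and 48) and for Sp5 (8 and 7 of 9) and Nkd1 (8 and 8 of 9), whereas both Rnf43 regions were open in all 16 libraries. Of the 66 regions, 16 were open in both CHIR-treated libraries alone and were in the set only through them, and further regions also needed them.

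The numbers open with CHIR differed across genes. However, Axin2, Sp5, Sp8, Nkd1 and Znrf3 each had regions that were in the set only through the CHIR-treated libraries. The numbers of each gene therefore describe the set and are not read as a response. Sp5 had 8 and 7 of its 9 regions open in CHIR-treated WT cells, against 1 and 3 in WT on day 3, and Nkd1 had 8 and 8 of 9 against 5 and 3. Axin2 had 13 and 14 of 18 open with CHIR against 11 and 9 in WT. Sp8 (10 and 9 of 12 with CHIR, 9 and 10 in WT), Znrf3 (4 and 4 of 8 with CHIR, 2 and 5 in WT) and Lgr5 (2 and 1 of 5 with CHIR, 3 and 1 in WT) had counts that overlapped between the groups.

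In all, 20 of the 66 regions (30.3%) were open in all 16 libraries, against 33.6% of all regions. They included the regions nearest to the TSS of Axin2, Nkd1, Lgr5, Rnf43 and Znrf3. A further 16 regions (24.2%) were open in both CHIR-treated WT libraries and in none of the other 14, against 6.81% of all regions. A region open in those 2 libraries alone could enter the set only through them, so this count describes the set and nothing is read from it.

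**Figure D2:**
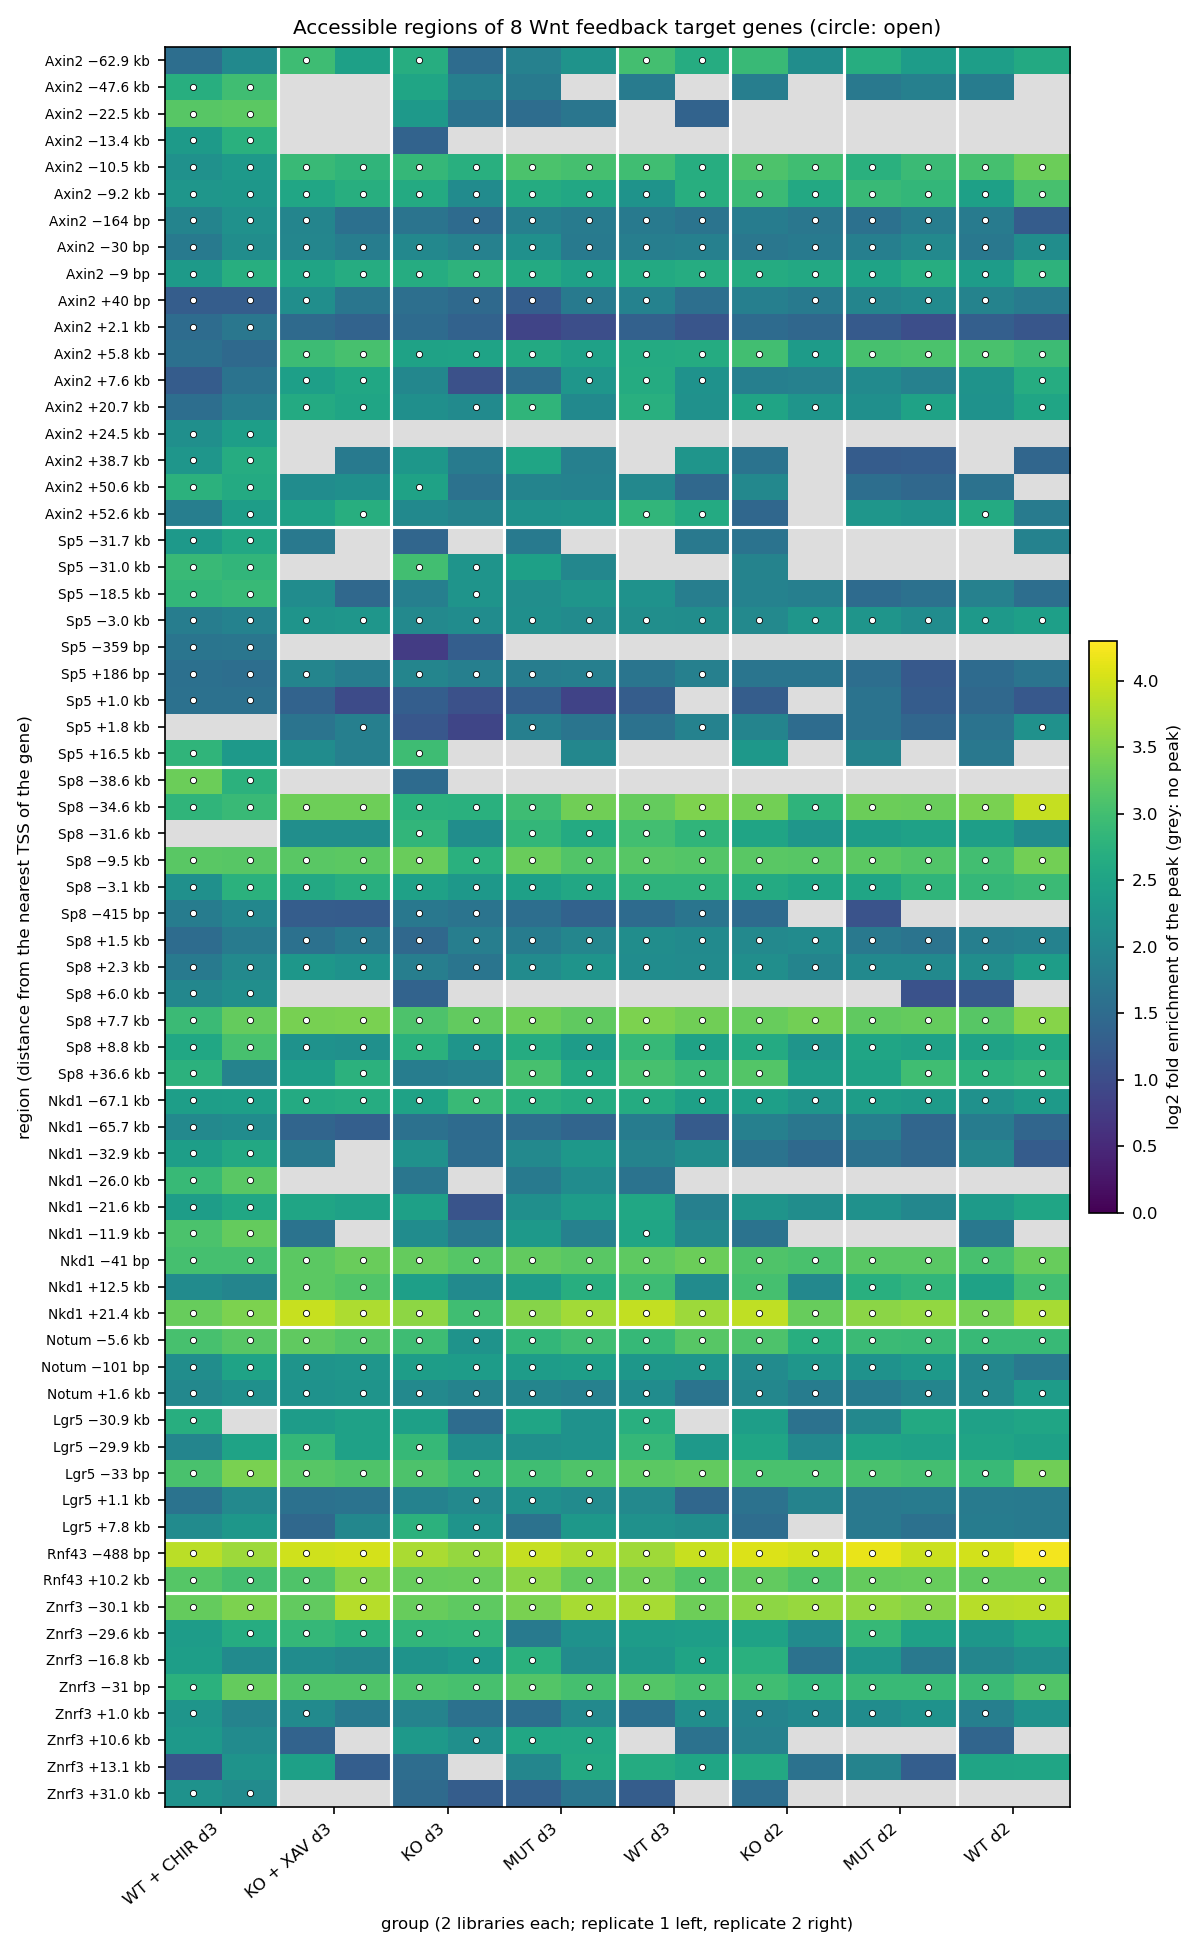
Each row is 1 of the 66 regions, named by its distance from the nearest TSS of its gene, and each column is 1 library. Colour gives log2 fold enrichment, grey means that no peak was listed, and circles mark open regions. Circles fill 20 rows in all 16 libraries, and rows with circles in the 2 leftmost columns only are the 16 regions open with CHIR alone.

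The comparison of CHIR-treated WT with WT cells on day 3 asks which of these regions respond when the pathway is switched on downstream of the receptor. Of the 66 regions, 19 were gained (open in both CHIR-treated libraries and in neither WT library; 28.8%, against 11.0% of all regions) and 5 were lost (7.58%, against 9.03%). In fold enrichment, 11 regions were higher (16.7%, against 10.1% of all regions) and 6 were lower (9.09%, against 13.3%) at an adjusted p under 0.05 in limma. The median log2 difference was 0.07 over the 66 regions and -0.03 over all regions. The numbers gained and higher cannot be read as a response of the 8 genes, because 18 of the 19 gained regions and 10 of the 11 higher ones were in the set through the CHIR-treated libraries, with a summit in both of those and in at most 1 other. Of all regions that were higher with CHIR, 72.3% likewise had a summit in fewer than 2 libraries outside the groups compared. A check added after the data had been seen took only the regions in which at least 2 libraries of neither group had a summit, 43 of the 66, with p-values adjusted over those regions. Of these 43, 1 was gained (2.33%, against 3.09% of such regions), 5 were lost (11.6%, against 9.74%), 1 was higher (2.33%, against 2.71%) and 5 were lower (11.6%, against 13.2%). The region that was gained and higher was Sp5 −31.0 kb. For the other regions that passed with higher values, the differences below are a description and no p-value is given. Adjusted p-values are printed below for regions that did not pass. Those of them that were gained with CHIR, and the intronic Nkd1 region, were also kept through the CHIR-treated libraries. Nothing is read from their p-values. The log2 differences below come from quantile-normalised values in which a library with no listed peak was given the lowest fold enrichment in its file, so where a group had no peak they depend on that floor.

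Sp5 gained a distal region with CHIR, at −31.0 kb. The other Sp5 windows that were gained, 1 of them just upstream of the first exon, were kept through the CHIR-treated libraries and only describe the set. The region at −31.0 kb (chr2:70443723-70444042) had a fold enrichment of 7.52 and 7.10 in CHIR-treated WT cells and no listed peak in either WT library on day 3 (log2 difference 2.36 ± 0.30 SE, adjusted p = 7.22e-05, and 0.000221 over the regions kept by other libraries, both WT libraries at the floor). At −359 bp (chr2:70474360-70474714), upstream of the first exon, values were 3.20 and 3.21 with CHIR, again with no WT peak (1.3 ± 0.25, both WT libraries at the floor). The region at +186 bp, just downstream of the Sp5 TSS, had 3.02 and 2.92 with CHIR and 3.17 and 3.67 in WT, a difference that did not pass the threshold (-0.04 ± 0.27, adjusted p = 0.947). Inside the gene, at +1.0 kb values were 3.03 and 3.04 with CHIR, against 2.41 and no peak in WT (0.99 ± 0.28, 1 WT library at the floor), and at +1.8 kb, in coding sequence, there was no peak with CHIR, against 3.08 and 3.73 in WT (-1.14 ± 0.33, adjusted p = 0.025, both CHIR-treated libraries at the floor). The regions at −31.7 kb (5.03 and 5.95 with CHIR, no peak and 3.33 in WT; 1.32 ± 0.53, adjusted p = 0.102, 1 WT library at the floor) and −18.5 kb (7.23 and 7.44 with CHIR, 4.55 and 3.59 in WT; 0.85 ± 0.34, adjusted p = 0.0984) were gained as open regions but did not pass the limma threshold.

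Sp8 fell at −31.6 kb with CHIR and had 2 windows that listed a peak with CHIR and none in WT. Both of those windows were kept only through the CHIR-treated libraries. The region at −38.6 kb (chr12:118807621-118807939) had 10.1 and 6.79 in CHIR-treated WT cells and no listed peak in WT (2.54 ± 0.17, both WT libraries at the floor). The region at +6.0 kb (chr12:118853412-118853720) had 3.98 and 4.35 with CHIR and no WT peak (1.65 ± 0.13, both WT libraries at the floor). At −31.6 kb (chr12:118814567-118814907) the order was the opposite, with no listed peak with CHIR against 7.96 and 7.03 in WT (-2.37 ± 0.21, adjusted p = 2.05e-06, both CHIR-treated libraries at the floor). The coding window at +1.5 kb was lost as an open region without passing the limma threshold, at 2.86 and 3.44 with CHIR against 4.33 and 4.17 in WT (-0.30 ± 0.36, adjusted p = 0.643). The Sp8 window at −415 bp, in the first intron and upstream of a later TSS, had 3.48 and 3.99 with CHIR and 2.85 and 3.18 in WT (0.52 ± 0.23, adjusted p = 0.127).

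Axin2, the gene with the most regions, had 4 windows with higher values with CHIR, all kept through the CHIR-treated libraries, and 3 that fell. At −22.5 kb (chr11:108897643-108897972) fold enrichment was 9.04 and 9.33 in CHIR-treated WT cells, against no listed peak and 2.59 in WT (2.22 ± 0.24, 1 WT library at the floor). The intronic region at +24.5 kb (chr11:108947558-108947867) had 4.39 and 5.34 with CHIR and no listed peak in any of the other 14 libraries (1.84 ± 0.09, both WT libraries at the floor). At −13.4 kb (chr11:108906752-108907088) values were 5.08 and 6.62 with CHIR and no peak in WT (2.06 ± 0.10, both WT libraries at the floor). The region at −47.6 kb had 6.49 and 7.88 with CHIR, against 3.46 and no peak in WT (1.74 ± 0.50, 1 WT library at the floor).
The 3 Axin2 regions that fell had peaks in all 4 libraries. At +5.8 kb, in an intron, fold enrichment was 3.00 and 2.77 with CHIR, against 6.18 and 6.28 in WT (-0.98 ± 0.19, adjusted p = 0.0017). At −10.5 kb it was 4.54 and 4.95 against 7.89 and 6.40 (-0.53 ± 0.14, adjusted p = 0.0141, and 0.0799 over the regions with a peak in all 16 libraries), and at −62.9 kb, inside an intron of the neighbouring gene Cep112, it was 2.92 and 4.11 against 8.06 and 6.34 (-0.93 ± 0.29, adjusted p = 0.0351). The Axin2 region nearest to a TSS was level: at −9 bp it had 5.10 and 6.45 with CHIR and 6.14 and 6.34 in WT (-0.10 ± 0.21). Other Axin2 windows by a TSS went both ways, and none passed the threshold. At −164 bp values were 3.85 and 4.53 with CHIR and 3.41 and 3.16 in WT. At −30 bp they were 3.36 and 4.32 against 3.57 and 3.67, and at +40 bp 2.42 and 2.40 against 3.74 and 2.97. The remaining changes of open state at Axin2 did not pass the limma threshold. Gained were the windows at +2.1 kb (2.87 and 3.26 with CHIR, 2.51 and 2.19 in WT; adjusted p = 0.179), at +38.7 kb, which held 3 TCF/LEF matches (4.80 and 6.36 with CHIR, no peak and 4.71 in WT; adjusted p = 0.184), and at +50.6 kb (6.80 and 6.18 with CHIR, 4.00 and 2.73 in WT; adjusted p = 0.0801). Lost was the window at +7.6 kb (2.38 and 3.10 with CHIR, 6.29 and 4.55 in WT; adjusted p = 0.0806).

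Nkd1 had windows upstream of its promoter that were open with CHIR and not in WT, all kept only through the CHIR-treated libraries. Their gain describes the set and is not read as a response. At −26.0 kb (chr8:88495168-88495524) values were 7.41 and 9.23 in CHIR-treated WT cells, against 3.12 and no listed peak in WT (2.07 ± 0.29, 1 WT library at the floor). Windows at −65.7 kb (4.09 and 4.24 with CHIR, 3.50 and 2.36 in WT), −32.9 kb (5.31 and 6.07 with CHIR, 3.81 and 4.33 in WT) and −21.6 kb (5.26 and 5.90 with CHIR, 5.89 and 3.67 in WT) were also gained as open regions but did not pass the limma threshold (adjusted p = 0.142, 0.395 and 0.532). An intronic Nkd1 region 11.9 kb upstream of an internal TSS (chr8:88570694-88571006) had 8.45 and 9.75 with CHIR and 5.76 and 4.04 in WT (0.88 ± 0.37, adjusted p = 0.12). The Nkd1 promoter at −41 bp had 8.19 and 8.20 with CHIR and 9.37 and 10.1 in WT (-0.25 ± 0.13, adjusted p = 0.216), and a region past the 3′ end of the gene, 21.4 kb from the internal TSS, had 9.91 and 11.0 with CHIR and 14.9 and 12.7 in WT (-0.41 ± 0.13, adjusted p = 0.0432, but 0.0578 over the regions kept by other libraries, 0.066 with median centring and 0.0883 over the regions with a peak in all 16 libraries).

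Among the genes that act on Wnt ligands and receptors, only 1 region passed the limma threshold with CHIR. That region was kept only through the CHIR-treated libraries, so its difference is a description. The window lay 31.0 kb inside Znrf3, in an intron (chr11:5413723-5414040), with 4.59 and 4.22 with CHIR, against 2.40 and no listed peak in WT (1.46 ± 0.27, 1 WT library at the floor). The Znrf3 promoter at −31 bp had 6.70 and 9.76 with CHIR and 8.92 and 8.14 in WT (-0.08 ± 0.15). Rnf43 had the tallest promoter of the 8 genes, at −488 bp, with 14.5 and 12.8 with CHIR and 12.9 and 15.3 in WT (-0.05 ± 0.14), and its intronic region at +10.2 kb had 9.0 and 8.09 against 10.3 and 8.83 (-0.17 ± 0.15). The Notum region at −101 bp, which also lies in an exon of the antisense gene Notumos, had 4.32 and 5.64 with CHIR and 4.83 and 4.77 in WT (0.10 ± 0.25). The Lgr5 promoter at −33 bp had 8.41 and 10.8 with CHIR and 9.34 and 9.60 in WT (-0.01 ± 0.16). None of these promoters passed the threshold, and at each of these 4 genes the values of the CHIR-treated and WT libraries overlapped.

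**Figure D3:**
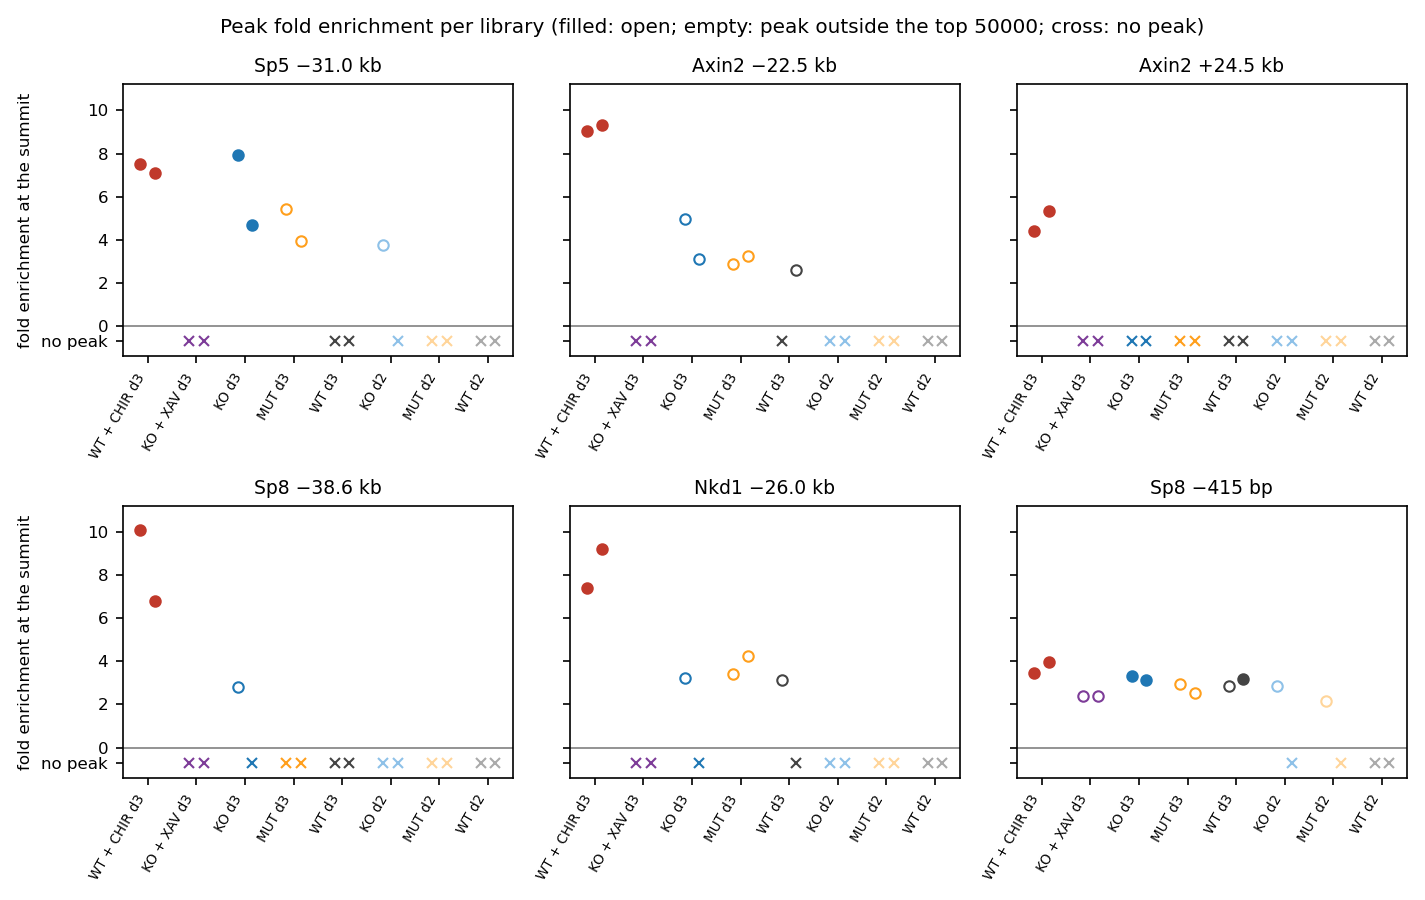
Fold enrichment (y axis, linear) of 6 regions in each of 16 libraries, grouped on the x axis. Filled points are open, empty points are peaks outside the 50000 kept intervals and crosses mark no listed peak. At Sp5 −31.0 kb the CHIR-treated WT (7.52 and 7.10) and KO (7.95 and 4.68) libraries were open, while at Axin2 +24.5 kb only the CHIR-treated libraries had a peak.

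Of the 7 calls with a p-value above, those at Sp5 −31.0 kb, Sp8 −31.6 kb and Axin2 +5.8 kb held when any 1 of the 4 libraries was left out. The others were lost in at least 1 such fit: Axin2 −62.9 kb and Nkd1 +21.4 kb without any of the 4 libraries (adjusted p of 0.0574 to 0.197 and of 0.108 to 0.17), Sp5 +1.8 kb without either CHIR-treated library or without replicate 2 of WT (0.0891 to 0.195), and Axin2 −10.5 kb without replicate 1 of either group (0.0632 and 0.0828). The number gained or lost was 24 with 50000 intervals a library, 8 with 25000 and 13 with every interval at a -log10 q of at least 2.

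The comparison of KO with WT cells on day 3 asks whether loss of TET1 alone moves these regions. A distal Axin2 region was higher in KO cells, and a distal Sp5 region and an intronic Znrf3 region had high and low values in KO cells. In limma 2 regions were higher (3.03%, against 2.49% of all regions) and there was 1 lower (1.52%, against 2.65%), with 3 gained (4.55%, against 3.93%) and 3 lost (4.55%, against 4.20%), so the shares over the 66 regions were near those over all regions. Over the 56 regions that at least 2 libraries of neither group had kept, 1 was higher (1.79%, against 1.94% of such regions), Axin2 −22.5 kb. Of these 56, 1 was gained (1.79%, against 2.99%), Znrf3 −29.6 kb, and 3 were lost (5.36%, against 3.91%). The median log2 difference was 0.05 over the 66 regions and 0.02 over all.

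At Sp5 −31.0 kb, fold enrichment was 7.95 and 4.68 in KO cells and no peak was listed in either WT library (log2 difference 2.26 ± 0.30, both WT libraries at the floor). Both KO libraries were open there and neither WT library was. The region had a summit in both KO libraries and in 1 CHIR-treated library, so without the KO libraries it would not have been in the set, and no p-value is given for it here. Over the alternatives that could be fitted its log2 difference was 2.09 to 2.77. At Axin2 −22.5 kb values were 4.97 and 3.11 in KO cells, against no listed peak and 2.59 in WT (1.14 ± 0.24, adjusted p = 0.0138, 1 WT library at the floor), and no library of either group was open. That call was lost without replicate 1 of KO (1.00, adjusted p = 0.0572) and without replicate 1 of WT (0.69, adjusted p = 0.107), within a range of adjusted p from 0.0008 to 0.107 over its alternatives, and the number of regions that differed was then 1 without replicate 1 of WT. The intronic Znrf3 region at +13.1 kb had 2.90 and no listed peak in KO cells against 6.23 and 5.75 in WT (-1.79 ± 0.46, 1 KO library at the floor). It was kept through 1 WT and 1 MUT library, and its difference did not pass the threshold without any 1 of the 4 libraries (adjusted p of 0.0742 to 0.184) or with median centring (0.106).

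Gained regions in KO cells, besides Sp5 −31.0 kb, were Lgr5 +7.8 kb and Znrf3 −29.6 kb, and lost ones were Axin2 +7.6 kb, Axin2 +52.6 kb and Sp8 +36.6 kb. None of these 5 passed the limma threshold. Lgr5 +7.8 kb (chr10:115579538-115579840), in an intron of Lgr5 that also holds the gene A930009A15Rik, had 6.76 and 4.68 in KO cells and 4.50 and 4.33 in WT (0.49 ± 0.31). It had a summit in the 2 KO libraries only and was in the set through them. Its gain is therefore a description and no p-value is given. Znrf3 −29.6 kb, upstream of the gene, had 7.08 and 7.19 in KO cells and 5.19 and 5.33 in WT (0.55 ± 0.23, adjusted p = 0.222). Of the lost regions, Sp8 +36.6 kb, in an intron of Abcb5, had 3.55 and 3.71 in KO cells and 8.31 and 7.56 in WT (-0.99 ± 0.29, adjusted p = 0.0738), Axin2 +52.6 kb had 4.11 and 3.81 against 7.08 and 6.16 (-0.62 ± 0.29, adjusted p = 0.304) and Axin2 +7.6 kb had 3.98 and 2.10 against 6.29 and 4.55 (-0.67 ± 0.30, adjusted p = 0.267). Values did not overlap between KO and WT cells at any of these 3, but being called lost already required a difference in open state. How many of all regions had values without overlap is not given, so nothing is read from this. The promoters of the 8 genes had log2 differences from -0.10 to 0.31 between KO and WT cells, none past the threshold.

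Set directly against each other, CHIR-treated WT and KO cells on day 3 differed at 11 of the 66 regions: 8 were higher with CHIR (12.1%, against 7.85% of all regions) and 3 were lower (4.55%, against 8.80%). All 8 that were higher were in the set only through the CHIR-treated libraries, so their count and differences are a description. Over the 40 regions that libraries of neither group had kept, 3 were lower (7.50%, against 8.41% of such regions). This comparison was added after the data had been seen, and it shares the CHIR-treated and KO libraries with those above. Sp5 −31.0 kb did not pass the threshold (0.10 ± 0.30, adjusted p = 0.897), with values of 7.52 and 7.10 with CHIR and 7.95 and 4.68 in KO cells. Axin2 −22.5 kb was higher with CHIR, at 9.04 and 9.33 against 4.97 and 3.11 (1.08 ± 0.24). Axin2 −13.4 kb (5.08 and 6.62 with CHIR, 2.58 and no peak in KO cells), Axin2 +24.5 kb (4.39 and 5.34, no peak in KO cells), Sp8 −38.6 kb (10.1 and 6.79, against 2.83 and no peak) and Nkd1 −26.0 kb (7.41 and 9.23, against 3.22 and no peak) were higher as well, with at least 1 KO library at the floor. Sp5 −31.0 kb was the only one of the 66 regions that was open in all 4 libraries of KO and CHIR-treated WT and in none of the 6 of XAV-treated KO, MUT and WT on day 3, a pattern that 0.786% of all regions had and that was chosen after the values had been seen.

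The comparison of XAV-treated with untreated KO cells on day 3 asks which regions depend on signalling that XAV blocks. No region of the 8 genes was higher and 4 were lower with XAV (6.06%, against 2.60% of all regions, while 3.24% of all regions were higher). In open state 2 were gained (3.03%, against 4.89%) and 3 were lost (4.55%, against 4.16%). The median log2 difference was -0.11 over the 66 regions and -0.03 over all. Over the 61 regions kept by at least 2 libraries of neither group, 3 were lower (4.92%, against 2.06% of such regions), which leaves out Sp5 −31.0 kb. In open state 1 of the 61 was lost (1.64%, against 3.21% of such regions) and 2 were gained (3.28%, against 4.79%). Of the 66 regions, 16 had an unadjusted p under 0.05 in either direction. The share of all regions at that level is not given, here or for the comparisons below, so nothing is read from these numbers. This comparison shares the KO libraries with that of KO and WT cells.

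At Sp5 −31.0 kb no peak was listed in either XAV-treated library, against 7.95 and 4.68 in KO cells (log2 difference -2.26 ± 0.30, both XAV-treated libraries at the floor). At Axin2 −22.5 kb there was likewise no peak with XAV, against 4.97 and 3.11 (-1.59 ± 0.24, adjusted p = 0.0014, both XAV-treated libraries at the floor). The Axin2 call held without each of the 4 libraries. The Sp8 window at −415 bp (chr12:118846989-118847321) had 2.40 and 2.38 with XAV and 3.30 and 3.15 in KO cells (-0.89 ± 0.23, adjusted p = 0.037). The Znrf3 intronic region at +10.6 kb (chr11:5434112-5434448) had 2.58 and no peak with XAV, against 5.04 and 4.39 (-1.63 ± 0.40, adjusted p = 0.0316, 1 XAV-treated library at the floor). The Sp8 call was lost without either XAV-treated library or without replicate 2 of KO (adjusted p of 0.162 to 0.182), and the Znrf3 call without any 1 of the 4 (0.0649 to 0.218). Median centring ended both (0.264 and 0.0963), and a floor of 1 ended that at Znrf3 (0.0737). The number of regions that differed was 2 without replicate 1 of XAV-treated KO and 2 without replicate 2 of KO.

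Lgr5 +7.8 kb lost its open state with XAV, at 2.73 and 3.98 with XAV against 6.76 and 4.68 (-1.12 ± 0.31), and did not pass the limma threshold. This region was in the set only through the untreated KO libraries, so its loss describes the set and no p-value is given. The 2 gained regions were Axin2 +7.6 kb, with 5.35 and 5.92 with XAV against 3.98 and 2.10, and Nkd1 +12.5 kb, with 9.32 and 8.73 against 5.36 and 4.15, and neither passed the limma threshold. Fitted with the cell line as a replicate block, the number of lower regions was 6, with Lgr5 +7.8 kb and Axin2 −47.6 kb (adjusted p = 0.0364) added. Set against untreated WT cells, a comparison added after the data had been seen, XAV-treated KO cells differed at none of the 66 regions in limma (5 had an unadjusted p under 0.05), where 0.529% of all regions were higher or lower. Neither the XAV-treated nor the WT libraries listed a peak at Sp5 −31.0 kb.

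**Figure D4:**
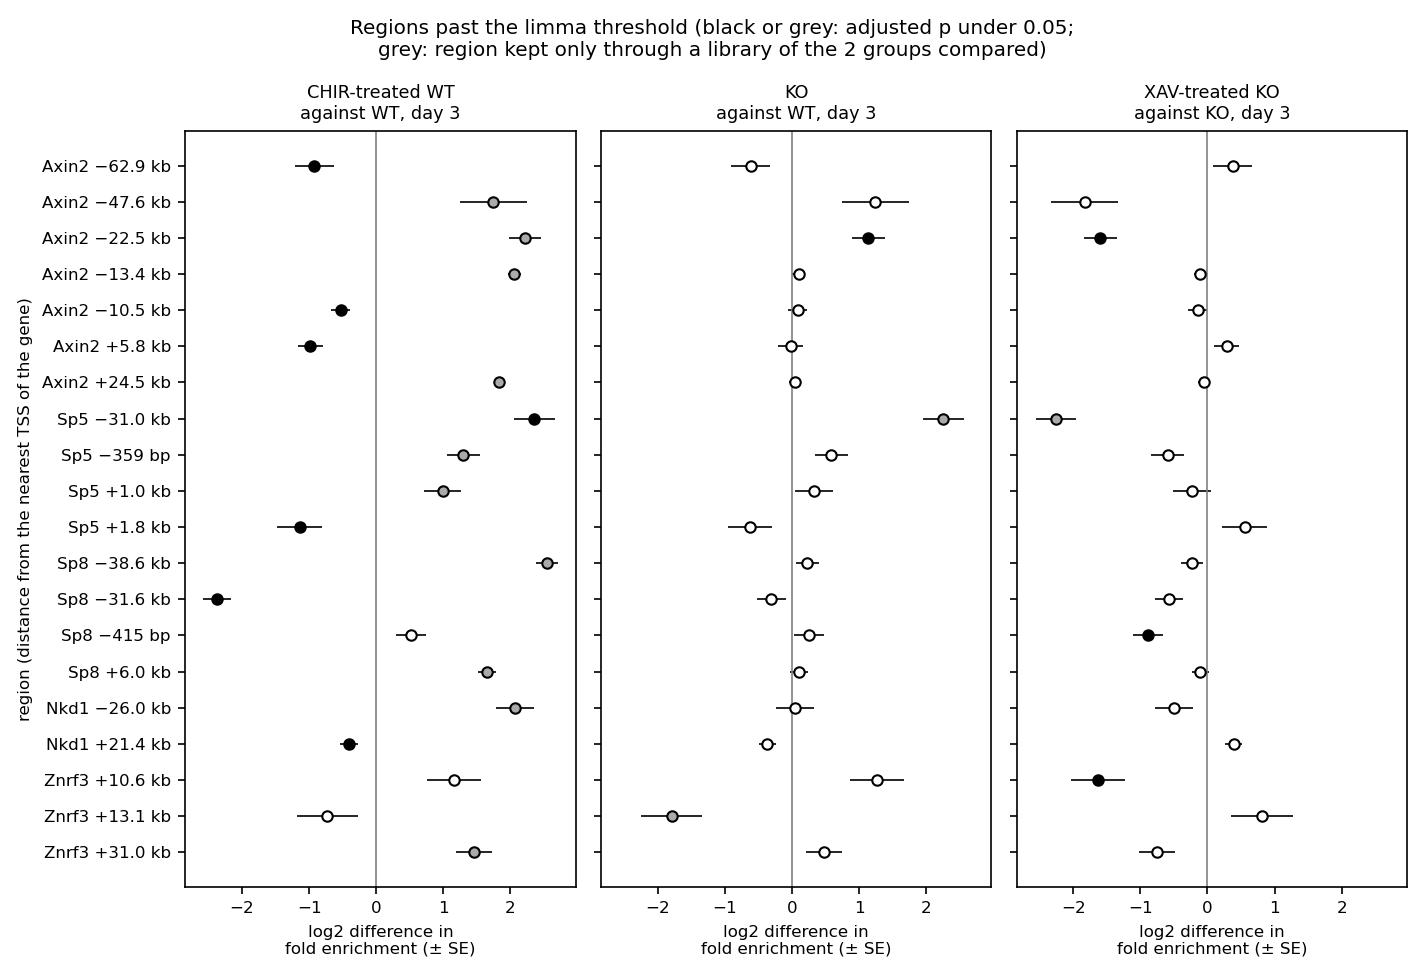
Log2 difference in fold enrichment (x axis, points with ± SE bars) of the regions that passed the limma threshold in at least 1 of 3 comparisons on day 3. Black and grey points have an adjusted p under 0.05, and grey ones are regions that fewer than 2 libraries outside the groups compared had kept. Sp5 −31.0 kb lay at 2.36 for CHIR against WT, 2.26 for KO against WT and -2.26 for XAV against KO, comparisons that share WT or KO libraries.

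MUT cells, which make a TET1 without catalytic activity, differed from WT cells on day 3 at none of the 66 regions (0.0509% of all regions were higher or lower, and 6 of the 66 had an unadjusted p under 0.05). In open state 4 were gained or lost (6.06%, against 3.83% of all regions). The 2 gained ones were in the set through the MUT libraries, so they are a description. Over the 59 regions kept by at least 2 libraries of neither group, none was gained (1.55% of such regions were) and 2 were lost (3.39%, against 1.65%). Sp5 −31.0 kb had a peak in both MUT libraries, at 5.44 and 3.96, and in neither WT library, but was open in neither MUT library (1.73 ± 0.30, adjusted p = 0.0794, both WT libraries at the floor). Axin2 −22.5 kb had 2.89 and 3.24 in MUT cells, against no peak and 2.59 in WT (0.59 ± 0.24, adjusted p = 0.725). The gained regions were Znrf3 +10.6 kb, with 5.89 and 5.96 in MUT cells against no peak and 3.08 in WT (1.48 ± 0.40), and Lgr5 +1.1 kb. Axin2 −62.9 kb and +52.6 kb were lost. The KO, MUT and CHIR comparisons share the same 2 WT libraries.

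On day 2, before the inhibitors were added, no region of the 8 genes was gained or lost in KO against WT cells (4.14% of all regions were) or in MUT against WT cells (3.36% were). None passed limma in either comparison, where 0.0261% and 0.0124% of all regions did. At an unadjusted p under 0.05 there were 3 of the 66 regions in KO against WT and 0 in MUT against WT. Sp5 −31.0 kb had 3.78 in 1 KO library and no listed peak in the other KO, the MUT or the WT libraries of day 2, and Axin2 −22.5 kb had no listed peak in any of the 6.

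From day 2 to day 3 the number of open regions of the 8 genes was higher in each untreated genotype. In KO cells 5 regions were higher on day 3 than on day 2 (7.58%, against 4.46% of all regions) and none was lower (5.59% of all regions were, and 15 of the 66 had an unadjusted p under 0.05 in either direction), with 5 gained (7.58%, against 5.17%) and 1 lost (1.52%, against 6.43%). The median log2 difference was 0.17 over the 66 regions and 0.04 over all. Over the 61 regions kept by at least 2 libraries of neither group, 3 were higher (4.92%, against 3.77% of such regions), since Sp5 −31.0 kb and Lgr5 +7.8 kb then drop out. Besides Sp5 −31.0 kb (7.95 and 4.68 on day 3, 3.78 and no peak on day 2; 1.65 ± 0.30, 1 day 2 library at the floor) and Axin2 −22.5 kb (4.97 and 3.11 against no peak; 1.58 ± 0.24, adjusted p = 0.0011, both day 2 libraries at the floor), they were Lgr5 +7.8 kb, Axin2 +52.6 kb and the Sp8 window at −415 bp. Lgr5 +7.8 kb had 6.76 and 4.68 on day 3 and 2.89 and no peak on day 2 (1.88 ± 0.31, 1 day 2 library at the floor). Axin2 +52.6 kb had 4.11 and 3.81 on day 3 and 2.72 and no peak on day 2 (1.42 ± 0.29, adjusted p = 0.0087, 1 day 2 library at the floor), and the Sp8 window had 3.30 and 3.15 against 2.85 and no peak (1.04 ± 0.23, adjusted p = 0.0116, 1 day 2 library at the floor).

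The calls at Axin2 +52.6 kb and at the Sp8 window were lost without replicate 2 of KO on day 2 (adjusted p = 0.0615 and 0.092) and without replicate 2 of KO on day 3 (0.056 and 0.0688), while that at Axin2 −22.5 kb held. The number of regions that differed was 3 without replicate 2 of day 2 and 9 without replicate 1 of day 3. When values were centred on each library's median instead of quantile-normalised, 3 regions were higher, without Axin2 +52.6 kb (adjusted p = 0.0629) and the Sp8 window (0.142), and over all regions the share of calls that were higher was 30.1% in place of 44.4%. With the cell line as a replicate block 6 were higher, with the intronic Nkd1 region (−11.9 kb) added (1.20 ± 0.35, adjusted p = 0.0447).

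In WT cells no region of the 8 genes differed between day 3 and day 2 (1.25% of all regions did, and 5 of the 66 had an unadjusted p under 0.05), and 2 were gained and none lost (3.03%, against 7.41% gained or lost of all regions), namely Axin2 −62.9 kb and Sp8 −31.6 kb. With the cell line as a replicate block 1 region passed, the Sp8 window at −415 bp, with 2.85 and 3.18 on day 3 and no listed peak on day 2 (0.98 ± 0.22, adjusted p = 0.0433, both day 2 libraries at the floor). Without replicate 1 of WT on day 3 the number was 2. The change from day 2 to day 3 was compared between KO and WT cells with an interaction term, added after the data had been seen. At Sp5 −31.0 kb the change was 1.65 ± 0.43 larger in KO cells (adjusted p = 0.105) and at Axin2 −22.5 kb 1.13 ± 0.34 larger (adjusted p = 0.182), and no region of the 8 genes passed (6 had an unadjusted p under 0.05).

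Between replicate lines, the regions of the 8 genes varied about as much as others: the median within-group SD of their normalised log2 fold enrichment was 0.25, against 0.22 over all regions. Over the 16 libraries fold enrichment ranged from 12.3 to 18.6 at the Rnf43 promoter, from 7.55 to 10.8 at that of Lgr5, from 8.19 to 10.1 at that of Nkd1, from 6.70 to 9.76 at that of Znrf3, from 5.10 to 6.88 at that of Axin2 and from 3.34 to 5.64 at that of Notum. Values were from 2.31 to 3.88 at Sp5 +186 bp and, where a peak was listed, from 2.15 to 3.99 at the Sp8 window at −415 bp, which had no listed peak in 4 of the 6 day 2 libraries. On day 3 both windows were open in both libraries of CHIR-treated WT and of KO and in 1 of 2 WT libraries. Sp5 +186 bp was also open in both MUT libraries and in 1 of 2 XAV-treated KO libraries of that day.

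The other genes of the pathway were read from a list of 61 ligands, receptors, cytoplasmic and nuclear components and secreted antagonists, which had 479 regions. Between KO and WT cells on day 3, 23 of them were higher (4.80%, against 2.49% of all regions) and 11 lower (2.30%, against 2.65%), with a median log2 difference of 0.03. Between CHIR-treated WT and WT cells 75 were higher (15.7%, against 10.1%) and 72 lower (15.0%, against 13.3%), with a median of 0.03. With XAV, 20 were higher (4.18%, against 3.24%) and 19 lower (3.97%, against 2.60%) than in untreated KO cells, with a median of -0.07. None differed between MUT and WT cells on day 3 or between genotypes on day 2. The counts of this list were not limited to regions kept by libraries of neither group compared. Of all regions that were higher, 72.3% with CHIR and 24.0% in KO against WT had a summit in fewer than 2 other libraries. The counts therefore describe the list and are not read as a response. By role, the KO calls were 5 higher and 3 lower among ligands and R-spondins, 2 and 2 among receptors, 2 and 2 among cytoplasmic components, 7 and 0 among nuclear components and 7 and 4 among secreted antagonists and Kremens. Sfrp1, a secreted Wnt antagonist, had the most regions called in KO cells, 4 of 11 higher and 1 lower, and with CHIR it had 5 higher and 1 lower. The corepressor gene Tle3 had 3 of 26 higher in KO cells and 8 higher and 2 lower with CHIR, and Ctnnb1, which encodes β-catenin, had 2 of 12 higher and 1 lower in KO cells. Dkk1, an LRP antagonist, Rspo3, an R-spondin, and Tcf7l2, a TCF factor, had 2 higher regions each in KO cells.

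The number of open regions of the 8 genes together was compared with that of each of 7025 other genes with at least 4 regions, over the 16 libraries. Among the genes with the most similar pattern were Vwa3a (Pearson's r = 0.98), Cdkl1 (0.97), Glrx (0.96) and Gas7 (0.95). The libraries share their lines and fall into treated and untreated groups, so these values only describe the pattern. Vwa3a had 5 and 5 of its 6 regions open with CHIR, 3 in each other day 3 library and 2 in each day 2 library, and Gas7 had 8 and 8 of 10 open with CHIR against 3 and 3 in WT on day 3.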

How the data were processed

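ATAC-seq peak lists of 16 mouse ESC-derived libraries were used, 2 lines a group. The authors prepared libraries by Omni-ATAC and ran the ENCODE ATAC-seq pipeline (trimming, alignment, removal of duplicates, peak calling) on mm10. The submitters' processing notes also name DiffBind 3.0.15, HOMER 2 and deepTools 3.4.3. In the deposited lists, column 7 is the fold enrichment (a ratio over local background) at a peak's summit, and columns 8 and 9 are -log10 p and -log10 q. These lists hold no read counts, so that depth is unknown. The authors' lists of differential regions hold their own comparison and were not used. The file names of replicate 2 on day 2 carry the word merged, which neither the labels nor the methods explain.

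Each library's 50000 distinct intervals with the highest -log10 p gave the open calls. Summit windows (150 bp each side) were merged and kept where at least 2 libraries had one, and 11 windows of the 8 genes seen in 1 library only were left out. Genes were assigned by the nearest protein-coding TSS (GENCODE M21) within 100 kb. Log2 fold enrichment, with the library's lowest value where no peak was listed, was quantile-normalised and fitted across all 80576 regions and all 16 libraries with limma 3.58.1 (R 4.3.3; trend, Benjamini-Hochberg, threshold 0.05). The fit was tested on simulated data. Gained and lost carry no p-value. Regions named were the promoter and the most variable region of each gene and all that passed limma or were gained or lost with KO or CHIR on day 3. Other Wnt genes named were the 6 with most KO calls, ties in alphabetical order. Genes with a similar pattern were named by their correlation over the 16 libraries, and 1 of them is not reported here. Python 3.11.15, pandas 2.3.3, numpy 2.4.6 and pysam 0.24.0 were used.

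The same lines recur on both days and with XAV, so that lines pair these samples by design. Deviations from the group mean correlated at 0.20 (KO day 3 and day 2), 0.091 (WT), 0.010 (MUT) and 0.021 (XAV-treated and untreated KO), and the fit with cell line as a block had a correlation of 0.083. Alternatives were another normalisation, floor, overlap, TSS set or interval number, the block, each library left out and, chosen after the data had been seen, only regions kept by libraries of neither group compared. The 8 genes and the lists were chosen with earlier results of these data known.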

Additional observations from a re-analysis of the deposited data

How the results depend on the processing

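None of the 40 differences of the 8 genes' regions that passed the threshold changed direction under the alternatives run on them. A floor of 1 ended 5 of the 40 calls and median centring 9. Those were, with a floor of 1, Axin2 −47.6 kb for CHIR against WT (adjusted p = 0.0706), Axin2 −22.5 kb, Sp5 −31.7 kb and Znrf3 +31.0 kb for CHIR against KO (0.0507, 0.0675 and 0.0741) and Znrf3 +10.6 kb for XAV (0.0737), and with median centring, Sp5 +1.0 kb and Nkd1 +21.4 kb for CHIR against WT (0.0793 and 0.066), Sp5 −31.7 kb and Znrf3 +31.0 kb for CHIR against KO (0.12 and 0.11), Znrf3 +13.1 kb for KO against WT (0.106), Axin2 +52.6 kb and Sp8 −415 bp for KO day 3 against day 2 (0.0629 and 0.142), and Sp8 −415 bp and Znrf3 +10.6 kb for XAV (0.264 and 0.0963). Counts of regions of the 8 genes moved by over 1.5 times as follows. With only regions that had a peak in all 16 libraries, 6 differed in CHIR-treated WT against WT in place of 17, and 0 in place of 3 (KO against WT, day 3), 4 (XAV-treated against untreated KO) and 5 (KO day 3 against day 2), since regions without a peak in some library were then not tested. Over all regions the share of calls that were higher changed there too, to 34.7% in place of 48.4% for KO against WT to 69.5% in place of 55.5% for XAV and to 32.3% in place of 44.4% for KO day 3 against day 2. Median centring left 3 of 5 in KO day 3 against day 2, and for WT day 3 against day 2 gave 19.3% of calls over all regions as higher in place of 35.3%. The fit with cell line as a replicate block gave 1 region in place of 0 for WT day 3 against day 2, and it ended no call. Counts gained or lost with 25000 intervals a library, against 50000, were 1 against 6 (KO), 1 against 4 (MUT), 8 against 24 (CHIR), 2 against 5 (XAV), 1 against 2 (WT day 3 against day 2) and 2 against 6 (KO day 3 against day 2). With every interval at a -log10 q of at least 2 they were 3, 13, 3, 1 and 0 for KO, CHIR, XAV, WT day 3 against day 2 and KO day 3 against day 2. With only the regions that libraries of neither group had kept, chosen after the data had been seen, 6 differed (CHIR, 17 with all), 1 (KO, 3 with all) and 3 (KO day 3 against day 2, 5 with all), and 6 were gained or lost (CHIR, 24 with all), 2 (MUT, 4 with all) and 3 (XAV, 5 with all), since fewer regions were then counted. An overlap of at least 50% and 1 TSS a gene moved no count by over 1.5 times.

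Leaving out 1 library at a time, the number that differed ranged from 12 to 16 (CHIR), 1 to 3 (KO), 2 to 5 (XAV), 3 to 9 (KO day 3 against day 2), 0 to 2 (WT day 3 against day 2) and 0 to 0 (MUT on day 3, and KO and MUT on day 2). The number gained or lost ranged from 26 to 30 (CHIR), 9 to 11 (KO), 6 to 9 (XAV), 4 to 8 (MUT), 6 to 12 (KO day 3 against day 2), 3 to 7 (WT day 3 against day 2), 0 to 4 (KO, day 2) and 0 to 6 (MUT, day 2), where 1 library alone then had to be open or closed. Where an arm was left with 1 library, its spread was assumed to be that of the other groups. With 2 libraries a group and unknown depth, a difference that did not pass is not shown to be absent.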
